A study of Mus musculus with 15 samples.

Results

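The nuclear-encoded subunits of complex III, complex IV and the ATP synthase were measured, together with cytochrome c, the carrier that links complex III to complex IV. They were taken from the table of all genes by name, as protein-coding genes whose mouse symbol starts with Uqcr, Cox4, Cox5, Cox6, Cox7, Cox8 or Atp5, plus Cyc1 and Cycs. The rule uses no measured value, but it was set with earlier results of these data known. The table listed 43 such genes among 14337, and all 43 were tested. RNA-Seq was performed on poly(A)-captured RNA of primary cardiomyocytes from the hearts of wild-type C57/BL6 mouse pups aged 1 to 3 days, and all 4 groups went through the same culture. After 5 days in culture the cells were held in 0.5% FBS for 24 h, treatment began on day 6, and RNA was taken on day 8. Control cells received saline (libraries S1, S2 and S3), AngII cells received 1 µM angiotensin II, the peptide hormone used to mimic the stress of heart failure (S5, S6, S7 and S8), ldCil cells received 20 nM cilengitide, a cyclic peptide that binds αvβ3 integrin, at a low dose (S9 to S12), and AngII + ldCil cells received both agents (S13 to S16).

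Complex III passes electrons from ubiquinol to cytochrome c and pumps protons, complex IV passes them on to oxygen, and the ATP synthase lets the protons flow back through its membrane part, Fo, to drive ATP synthesis in its F1 part. The heart meets most of its ATP demand in this way, and cardiac muscle is among the tissues richest in these enzymes. The catalytic core of complex IV, cytochrome b of complex III and subunits of Fo are encoded by mitochondrial DNA, while the genes described here are encoded in the nucleus and include muscle-type isoforms of complex IV subunits whose use in the heart increases after birth.

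Levels are given as log2 RPKM, reads scaled to the length of the gene and the size of the library, which the authors adjusted by conditional quantile normalisation, so that the 75th percentile is 4.93 in all 15 libraries. Depth cannot be read from such values, and no error of counting is stated. Cardiomyocyte markers were high in each library, from Nppa with a mean of 11.99 log2 RPKM and Actc1 with 11.69 to Myh7 with 6.58. Some markers of other cell types were high too. Fibroblast markers ran from Sparc (10.18) to Pdgfra (3.58), smooth muscle markers from Acta2 (10.11) to Myh11 (2.07), and macrophage markers from Lyz2 (7.37) to Ptprc (0.65). Whether the libraries of a group came from separate cultures is not stated, so every p-value here rests on a spread between libraries that may be technical only. The limma test of all 12848 genes called no gene at an adjusted p under 0.05 in any of 5 comparisons, and at an unadjusted p under 0.05 it called 776 genes for AngII against control, 251 for ldCil against control, 722 for AngII + ldCil against control, 331 for AngII + ldCil against AngII and 496 for the AngII by ldCil interaction. Fold changes below are log2 differences between group means of log2 RPKM. In bulk RNA, fewer cells of a type and less RNA per cell cannot be told apart.

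The subunit genes were among the more abundant in these cells. Over the 15 libraries the levels per length ran from Atp5b, the catalytic beta subunit of F1, with a mean of 10.61 log2 RPKM, through Atp5a1 (alpha, 10.33), Atp5g3 (a c-ring gene, 9.59) and Cox4i1 (9.0), down to Cox6b2 (2.20), named as a testis-type isoform, and Cox4i2 (0.80), an alternative form of the Cox4 subunit known from lung. The complex III genes lay between 6.48 and 8.59 and those of the peripheral stalk between 7.31 and 8.19. In the median the genes varied from library to library about as much as other genes. The median SD over the libraries was 0.27 for the 43 genes, against 0.29 for all genes tested. At a mean between 6 and 9 it was 0.27 for 34 of the 43 genes and 0.25 for all 1408 genes of that level. Cox4i2 (SD 1.47), Cox7a1 (0.64), Cox8b (0.58) and Cox6b2 (0.52) varied most, and Atp5b least of the 43, with an SD of 0.03. Atp5b stood at the identical value of 10.63 in 10 of the 15 libraries. Quantile normalisation gives each rank a fixed value, so at the top of the range a small difference in log2 RPKM is a difference of rank.

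**Figure D1:**
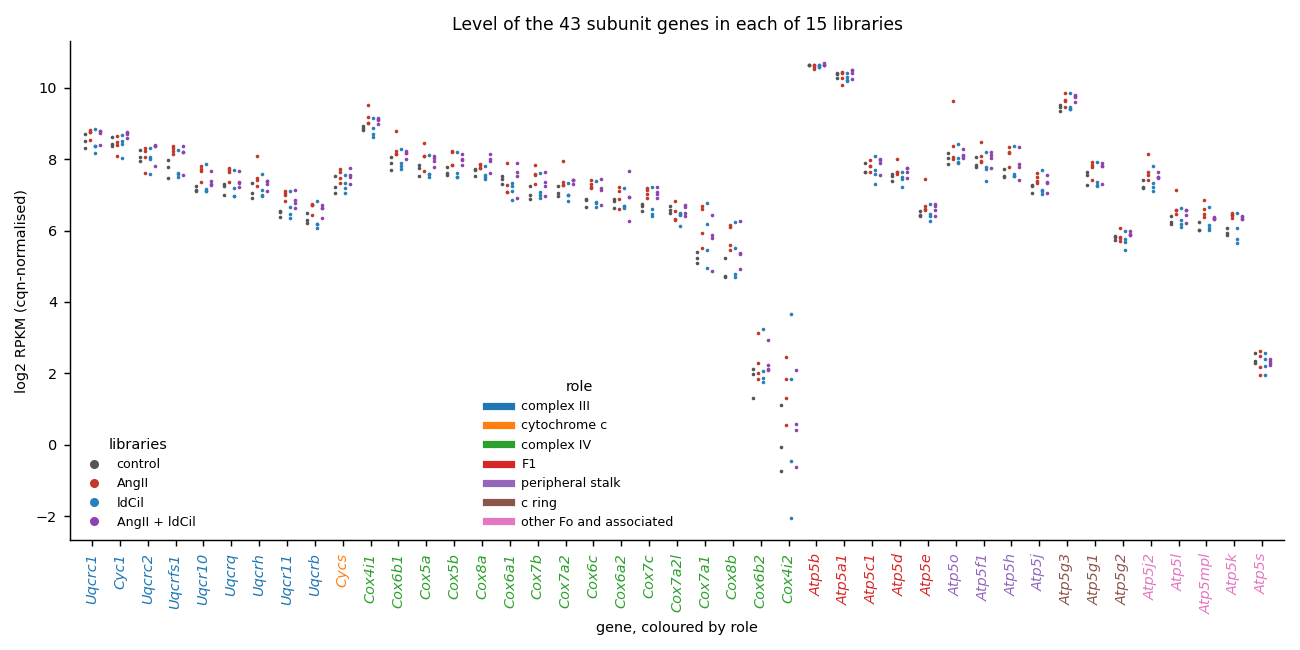
Level of each of the 43 genes in each of the 15 libraries, as log2 RPKM on the y axis, with genes ordered by role and then by mean on the x axis. Points are single libraries, coloured by treatment group. The F1 genes Atp5b and Atp5a1 sit at the top, above 10, and Cox4i2 has the widest spread, from −2.04 to 3.66.

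With AngII, 36 of the 43 genes were above their control mean and 7 below, and the median log2 fold change was 0.37, against 0.02 over all genes tested. None passed at an adjusted p under 0.05. At an unadjusted p under 0.05, 18 genes were higher and none was lower, which is 41.9% of the 43 genes where 3.41% of all genes were called higher and 2.63% lower. For 20 genes each AngII library was above each control library, against 5.06% of all genes, and for none was each below. The genes that passed at the unadjusted threshold had log2 fold changes between 0.37 and 0.95. By role, in complex III 5 of 9 genes passed with a median of 0.43 over its genes, in complex IV 8 of 16 (median 0.40), in the peripheral stalk 1 of 4 (0.39), and among the other Fo genes 4 of 5 (0.41). No gene of F1 (5 genes, median 0.09) or the c ring (3 genes, 0.21) passed.

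**Figure D2:**
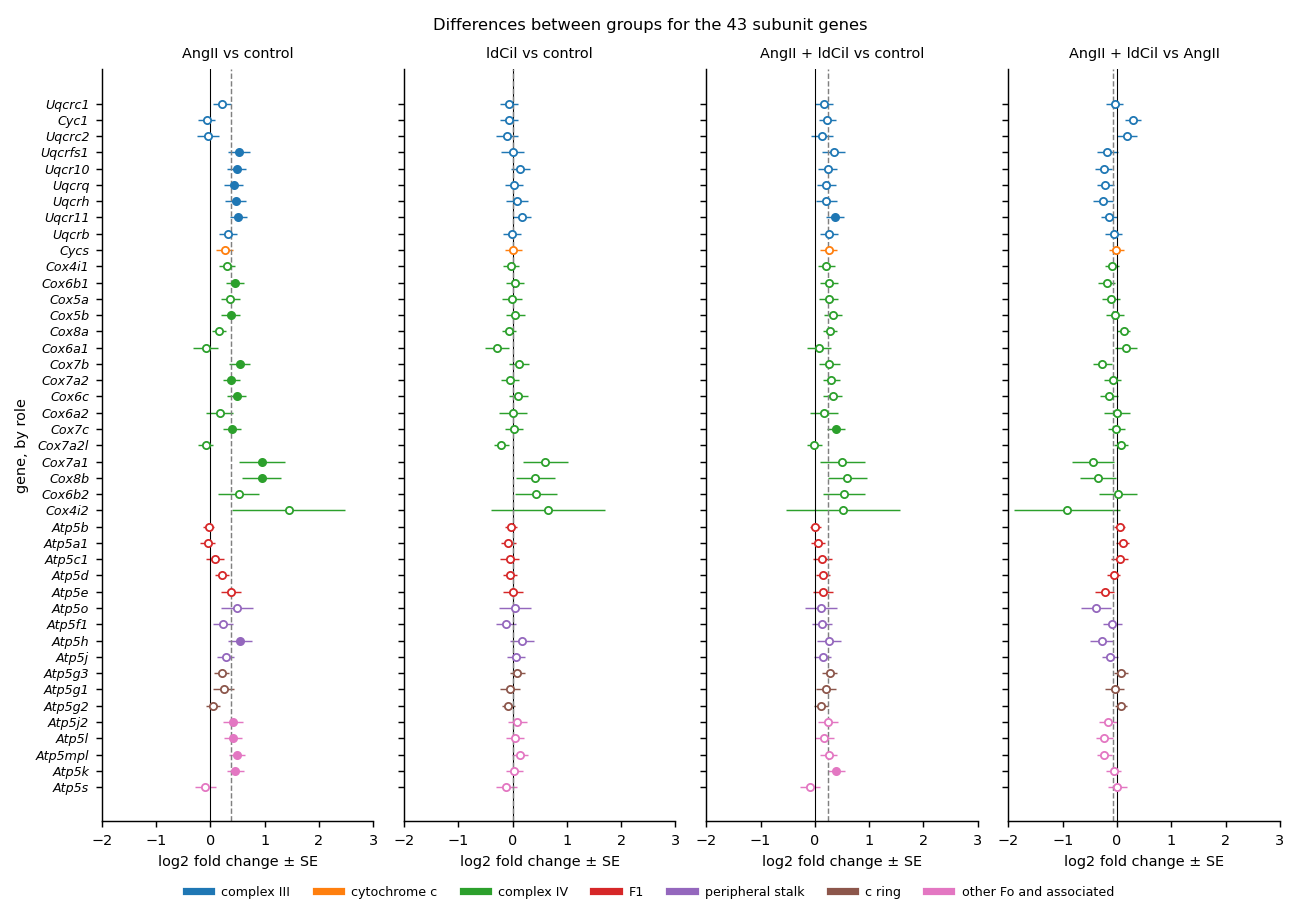
Log2 fold change of each of the 43 genes in 4 comparisons, with the SE from limma as bars. Filled points passed an unadjusted p under 0.05, and none passed after adjustment over 12848 genes; the dashed line is the median of the 43 genes, 0.37 for AngII, 0.01 for ldCil and 0.24 for AngII + ldCil against control, and −0.08 for AngII + ldCil against AngII.

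The largest subunits of complex III were close to control with AngII. Values are listed in the order of the libraries throughout. Cyc1, which carries the haem of cytochrome c1, was at 8.37, 8.61 and 8.43 in control, 8.07, 8.48, 8.64 and 8.40 with AngII, 8.50, 8.41, 8.02 and 8.68 with ldCil, and 8.76, 8.71, 8.73 and 8.60 with AngII + ldCil. The AngII and control libraries overlapped, with the S5 library lowest among the AngII group, and the log2 fold change was −0.07 (SE 0.16). Uqcrc2, the core protein 2, was at 8.06, 8.25 and 7.95 in control, 7.62, 8.05, 8.22 and 8.30 with AngII, 8.05, 8.0, 7.58 and 8.32 with ldCil, and 8.36, 8.35, 8.39 and 7.80 with AngII + ldCil. Its groups overlapped too, and again S5 was the lowest AngII library, while the fold with AngII was −0.04 (SE 0.20). Uqcrc1, the other core protein, was at 8.51, 8.72 and 8.31 in control, 8.83, 8.76, 8.75 and 8.53 with AngII, 8.37, 8.37, 8.16 and 8.85 with ldCil, and 8.74, 8.77, 8.79 and 8.39 with AngII + ldCil, a log2 fold change of 0.21 (SE 0.17) with AngII. Its S11 library was the lowest of all 15, as were those of Cyc1 and Uqcrc2.

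The Rieske iron-sulphur protein and the small subunits of complex III were the ones that passed. Uqcrfs1, which carries the iron-sulphur cluster that takes the first electron from ubiquinol, was at 7.77, 7.98 and 7.46 in control, 8.37, 8.22, 8.32 and 8.14 with AngII, 7.49, 7.62, 7.58 and 8.26 with ldCil, and 8.20, 8.21, 8.37 and 7.56 with AngII + ldCil. All 4 AngII libraries were above all 3 controls, with a log2 fold change of 0.53 (SE 0.21) (limma, unadjusted p = 0.0247, adjusted p = 0.782). Uqcr11, a small membrane subunit, was at 6.52, 6.54 and 6.37 in control, 6.98, 7.09, 7.06 and 6.83 with AngII, 6.46, 6.35, 6.67 and 7.12 with ldCil, and 6.76, 6.86, 7.13 and 6.64 with AngII + ldCil. The AngII libraries did not overlap the controls, and the fold of 0.52 (SE 0.17) had the second smallest p of the 43 genes (limma, unadjusted p = 0.00718, adjusted p = 0.782). Uqcr10, another small subunit, was at 7.14, 7.26 and 7.09 in control, 7.73, 7.67, 7.82 and 7.37 with AngII, 7.11, 7.10, 7.16 and 7.85 with ldCil, and 7.29, 7.39, 7.65 and 7.27 with AngII + ldCil, with a fold of 0.48 (SE 0.18) and no overlap with control. Uqcrq (0.43) and Uqcrh, the hinge protein near the cytochrome c docking site (0.47), also passed at the unadjusted threshold, while Uqcrb (0.32) did not.

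Cycs, the gene of somatic cytochrome c, was at 7.23, 7.53 and 7.06 in control, 7.46, 7.64, 7.72 and 7.32 with AngII, 7.32, 7.19, 7.06 and 7.56 with ldCil, and 7.50, 7.55, 7.76 and 7.29 with AngII + ldCil. The groups overlapped and the log2 fold change with AngII was 0.26 (SE 0.16), above 0 but not past the unadjusted threshold (limma, unadjusted p = 0.114, adjusted p = 0.786).

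In complex IV, the nuclear subunits that surround the mitochondrially encoded core were mostly above control with AngII, 14 of 16 by their means. Cox4i1, the main form of the largest nuclear subunit, was at 8.87, 8.92 and 8.80 in control, 9.50, 9.02, 9.17 and 9.0 with AngII, 8.87, 8.72, 8.62 and 9.16 with ldCil, and 8.98, 9.09, 9.12 and 9.15 with AngII + ldCil. The AngII libraries were all above control, with S5 the highest of 15 and a fold of 0.31 (SE 0.15) that missed the unadjusted threshold (limma, unadjusted p = 0.0562, adjusted p = 0.782). Cox5a was at 7.76, 7.84 and 7.52 in control, 8.45, 8.10, 8.08 and 7.68 with AngII, 7.59, 7.57, 7.50 and 8.12 with ldCil, and 8.02, 8.08, 7.96 and 7.78 with AngII + ldCil. The S8 library of the AngII group lay within the control range, and the fold was 0.37 (SE 0.18). Cox5b, the zinc-binding subunit, was at 7.61, 7.79 and 7.55 in control, 7.83, 8.19, 8.23 and 7.85 with AngII, 7.62, 7.50, 7.49 and 8.21 with ldCil, and 7.96, 8.01, 8.14 and 7.83 with AngII + ldCil, with no overlap between AngII and control and a fold of 0.37 (SE 0.17). The remaining subunits with a single common form and a higher level at the unadjusted threshold were Cox7b, with a log2 fold change of 0.54, Cox6c with 0.48, Cox6b1 with 0.45 and Cox7c with 0.40, and Cox7a2 of the isoform pairs below reached 0.39. Cox7a2l stood apart from these with 6.57, 6.69 and 6.49 in control, 6.83, 6.33, 6.31 and 6.53 with AngII, 6.44, 6.45, 6.12 and 6.49 with ldCil, and 6.67, 6.72, 6.41 and 6.50 with AngII + ldCil. It is described as a factor that joins complexes III and IV into supercomplexes, a role that was not measured in these cells. Its values with AngII overlapped control, at a fold of −0.08 (SE 0.14).

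Complex IV of muscle can hold muscle-type forms of 3 small subunits in place of the widely expressed forms, Cox6a2 for Cox6a1, Cox7a1 for Cox7a2 and Cox8b for Cox8a. The 3 muscle-type genes lie on mouse chromosome 7 (GRCm38, GENCODE M21), Cox7a1 at chr7:30184144-30186078 on the plus strand, Cox6a2 at chr7:128205435-128206387 and Cox8b at chr7:140898945-140900446, both on the minus strand. Cox7a1 was at 5.23, 5.39 and 5.09 in control, 5.94, 6.59, 6.69 and 5.52 with AngII, 5.46, 4.96, 6.18 and 6.77 with ldCil, and 5.87, 5.79, 6.43 and 4.86 with AngII + ldCil. The 3 control libraries lay close together and below all 4 AngII libraries, of which S6 and S7 were about 1 log2 unit above S8, and the fold was 0.95 (SE 0.42) (limma, unadjusted p = 0.0378, adjusted p = 0.782). Cox7a2 was at 7.05, 7.24 and 6.96 in control, 7.94, 7.28, 7.37 and 7.28 with AngII, 7.0, 7.0, 6.83 and 7.32 with ldCil, and 7.30, 7.42, 7.43 and 7.41 with AngII + ldCil, with a fold of 0.39 (SE 0.16) and S5 the highest library of all.

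Cox8b was at 4.74, 5.22 and 4.70 in control, 5.61, 6.16, 6.11 and 5.46 with AngII, 4.70, 4.77, 5.52 and 6.23 with ldCil, and 5.37, 5.35, 6.28 and 4.93 with AngII + ldCil. Its AngII libraries were all above control, with a fold of 0.95 (SE 0.36) (limma, unadjusted p = 0.0191, adjusted p = 0.782), and S12 and S15 were as high as any AngII library. Cox8a was at 7.72, 7.70 and 7.53 in control, 7.82, 7.76, 7.85 and 7.76 with AngII, 7.50, 7.56, 7.45 and 7.81 with ldCil, and 8.0, 7.95, 7.60 and 8.14 with AngII + ldCil, where AngII and control also did not overlap, but the fold was only 0.15 (SE 0.13). Cox6a2 was at 6.83, 6.88 and 6.64 in control, 6.60, 7.10, 7.23 and 6.89 with AngII, 6.69, 6.62, 6.69 and 7.20 with ldCil, and 6.94, 6.92, 7.68 and 6.27 with AngII + ldCil, with a fold of 0.17 (SE 0.25). Its S15 library was the highest and its S16 library the lowest of all 15, both of the AngII + ldCil group. Cox6a1 was at 7.52, 7.43 and 7.30 in control, 7.89, 7.07, 7.08 and 7.26 with AngII, 7.24, 7.33, 6.87 and 7.10 with ldCil, and 7.53, 7.63, 6.92 and 7.89 with AngII + ldCil, with a fold of −0.09 (SE 0.22) and overlap between AngII and control. In S15 Cox6a1 was among the lowest and in S16, with S5, at the highest level, the reverse of Cox6a2.

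Each muscle-type form was the minority of its pair on average in every group, as a share of the summed RPKM of the pair, although Cox6a2 exceeded Cox6a1 in 4 libraries. Cox6a2 made up 39.2% ± 1.25 (SD, n = 3) in control, 43.9% ± 10.6 (n = 4) with AngII, 44.3% ± 6.22 (n = 4) with ldCil and 41.4% ± 15.9 (n = 4) with AngII + ldCil. The Cox7a1 shares in control were 22.1, 21.7 and 21.4%, against 20.0, 38.3, 38.5 and 22.7% with AngII, 25.6, 19.6, 39.0 and 40.5% with ldCil, and 27.1, 24.5, 33.5 and 14.6% with AngII + ldCil. Each treated group thus held libraries near control and libraries well above it, and S16 of the AngII + ldCil group, at 14.6%, lay well below control. The Cox8b shares were 11.3, 15.2 and 12.4% in control, 17.7, 24.7, 23.0 and 16.9% with AngII, 12.5, 12.6, 20.7 and 25.1% with ldCil, and 14, 14.2, 28.6 and 9.80% with AngII + ldCil.

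**Figure D3:**
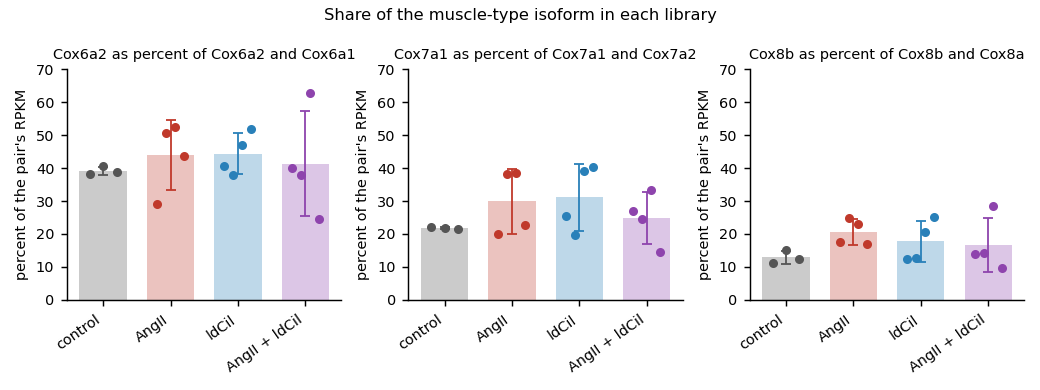
Share of the muscle-type isoform in the summed RPKM of its pair, in percent, by treatment group. Points are libraries, bars are group means and error bars are SD (n = 3 in control, n = 4 in the other groups). The control libraries lie close together while the treated libraries spread, for Cox7a1 from 14.6 to 40.5%.

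The log2 difference between the forms of a pair within a library does not depend on the scaling of that library. It was compared in 16 tests, for 4 pairs and 4 comparisons, by a 2-sided exact permutation test over libraries, whose smallest possible p is 0.0571 for 4 libraries against 3, so that no comparison with control could reach 0.05, and 0.0286 for 4 against 4. None reached 0.05. The smallest p was that of Cox8b minus Cox8a for AngII against control, where the difference was 0.80 less negative with AngII (−1.97 ± 0.34, SD, n = 4, against −2.76 ± 0.25, n = 3), without overlap (exact permutation p = 0.0571, adjusted p = 0.8 over the 16 tests). For Cox7a1 minus Cox7a2 the means were −1.28 ± 0.70 with AngII and −1.85 ± 0.03 in control, a difference of 0.56 with overlap (exact permutation p = 0.4, adjusted p = 0.8). Cox6a2 minus Cox6a1 differed by 0.26 (exact permutation p = 0.514, adjusted p = 0.823).

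Cox4i2, the alternative Cox4 subunit, was at −0.74, −0.05 and 1.11 in control, 0.56, 2.47, 1.83 and 1.32 with AngII, −2.04, −0.45, 3.66 and 1.85 with ldCil, and 0.59, −0.63, 2.11 and 0.42 with AngII + ldCil. It had the largest fold of the 43 genes with AngII, 1.44 (SE 1.05), but the groups overlapped and single ldCil libraries spanned the whole range, from −2.04 in S9 to 3.66 in S11 (limma, unadjusted p = 0.191). The fold was −0.13 with the mean of the cardiomyocyte markers as a covariate and −0.12 with that of the interferon response genes, 2 gene lists described below. It made up at most 3.11% of the summed RPKM of Cox4i2 and Cox4i1, in S11. Cox6b2 was at 1.31, 2.13 and 1.98 in control, 1.85, 2.02, 2.30 and 3.13 with AngII, 1.77, 1.86, 3.25 and 2.07 with ldCil, and 2.13, 2.08, 2.93 and 2.23 with AngII + ldCil, also with overlap, and at a fold of 0.52 (SE 0.38).

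In the F1 part of the ATP synthase no gene passed with AngII. Atp5b was at 10.63, 10.63 and 10.63 in control, 10.53, 10.63, 10.63 and 10.58 with AngII, 10.58, 10.63, 10.58 and 10.63 with ldCil, and 10.63, 10.63, 10.63 and 10.68 with AngII + ldCil, and the fold was −0.04 (SE 0.11). Atp5a1 was at 10.37, 10.41 and 10.27 in control, 10.07, 10.41, 10.45 and 10.27 with AngII, 10.21, 10.30, 10.18 and 10.41 with ldCil, and 10.49, 10.49, 10.41 and 10.24 with AngII + ldCil, with a fold of −0.05 (SE 0.13) and S5 lowest of all libraries, as for Atp5b. Atp5c1, the gamma subunit that forms the rotating shaft, was at 7.62, 7.89 and 7.64 in control, 7.81, 7.81, 7.97 and 7.64 with AngII, 7.71, 7.58, 7.29 and 8.07 with ldCil, and 7.90, 7.97, 8.01 and 7.56 with AngII + ldCil. Its groups overlapped, with a fold of 0.09 (SE 0.17). The smaller subunits Atp5d (delta) and Atp5e (epsilon) had folds of 0.21 (SE 0.13) and 0.37 (SE 0.18), and Atp5e did not overlap control.

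The peripheral stalk holds F1 still against the rotor. Atp5o, the OSCP subunit at its top, was at 8.04, 8.16 and 7.85 in control, 9.62, 8.07, 8.36 and 8.0 with AngII, 8.02, 7.88, 7.91 and 8.43 with ldCil, and 8.09, 8.12, 8.27 and 8.03 with AngII + ldCil. The S5 value stood far above all others, of which S12 was the next highest, and the fold of 0.49 (SE 0.29) was 0.12 without S5. Atp5h, subunit d, had the largest fold of the stalk, 0.55 (SE 0.23), with AngII libraries at 8.20, 8.18, 8.33 and 7.79 all above controls at 7.52, 7.73 and 7.49 (limma, unadjusted p = 0.0299, adjusted p = 0.782). The others, Atp5f1 (subunit b) and Atp5j (coupling factor F6), were at folds of 0.23 (SE 0.18) and 0.28 (SE 0.16).

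The c ring turns as protons pass, and 3 genes encode the same mature c subunit behind different import sequences. Atp5g3 was at 9.46, 9.51 and 9.34 in control, 9.44, 9.66, 9.86 and 9.62 with AngII, 9.40, 9.40, 9.44 and 9.84 with ldCil, and 9.73, 9.76, 9.78 and 9.59 with AngII + ldCil, and made up 75.4% ± 2.24 (SD, n = 15) of the summed RPKM of the 3 genes. Atp5g1 was at 7.57, 7.63 and 7.28 in control, 7.92, 7.82, 7.78 and 7.43 with AngII, 7.28, 7.35, 7.24 and 7.92 with ldCil, and 7.81, 7.89, 7.81 and 7.30 with AngII + ldCil and made up 19.1%. Atp5g2 was at 5.82, 5.84 and 5.73 in control, 6.07, 5.81, 5.79 and 5.70 with AngII, 5.68, 5.77, 5.44 and 5.99 with ldCil, and 5.99, 5.91, 5.88 and 5.88 with AngII + ldCil and made up 5.55%. The order was the same in all 15 libraries. With AngII the folds were 0.21 (SE 0.14), 0.25 (SE 0.19) and 0.05 (SE 0.12), each with overlap.

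Of the small genes of the Fo membrane part, 4 of 5 were higher with AngII at the unadjusted threshold. Atp5mpl, a small proteolipid of the enzyme, had the smallest p of the 43 genes and was at 6.01, 6.24 and 6.0 in control, 6.87, 6.45, 6.59 and 6.37 with AngII, 6.14, 6.02, 6.07 and 6.65 with ldCil, and 6.32, 6.34, 6.39 and 6.31 with AngII + ldCil. The AngII libraries were above all controls, with a fold of 0.49 (SE 0.15) (limma, unadjusted p = 0.00635, adjusted p = 0.782). Atp5k, subunit e, which helps ATP synthases pair in the cristae, was at 5.88, 6.07 and 5.93 in control, 6.48, 6.34, 6.44 and 6.42 with AngII, 6.06, 5.65, 5.76 and 6.48 with ldCil, and 6.40, 6.32, 6.38 and 6.32 with AngII + ldCil, with a fold of 0.46 (SE 0.15) (limma, unadjusted p = 0.00918, adjusted p = 0.782). Its 4 AngII libraries lay close together, all above control, and the 4 AngII + ldCil libraries were all above control too. Atp5l (subunit g) and Atp5j2 (subunit f) passed at the unadjusted threshold, with folds of 0.41 (SE 0.17) and 0.41 (SE 0.18). Atp5s, named for a coupling factor of the enzyme and expressed far below the subunits, was at 2.28, 2.58 and 2.35 in control, 2.49, 1.96, 2.18 and 2.62 with AngII, 2.40, 2.20, 1.95 and 2.58 with ldCil, and 2.30, 2.39, 2.34 and 2.24 with AngII + ldCil, a fold of −0.10 (SE 0.19), the lowest of the 43 with AngII.

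Low-dose cilengitide on its own left the 43 genes near control on average. There were 24 above and 19 below the control mean, with a median log2 fold change of 0.01 (all genes, 0.0014), and none passed even at an unadjusted p under 0.05, where 1.46% of all genes were called higher and 0.49% lower. The 3 smallest p above control were those of Cox7a1 (0.60 (SE 0.42)), Cox8b (0.42 (SE 0.36)) and Cox6b2 (0.43 (SE 0.38)). Those below control were Cox7a2l (−0.21 (SE 0.14)), the only gene of the 43 whose ldCil libraries did not overlap control (3.37% of all genes did so below control and 3.5% above), Cox6a1 (−0.28 (SE 0.22)) and Atp5f1 (−0.12 (SE 0.18)). Atp5f1 was at 7.82, 8.06 and 7.77 in control, 8.49, 7.95, 8.08 and 7.92 with AngII, 7.77, 7.72, 7.40 and 8.19 with ldCil, and 8.04, 8.12, 8.19 and 7.74 with AngII + ldCil. The 4 ldCil libraries were not alike. For 19 of the 43 genes S11 was the lowest of all 15 libraries, and for 9 genes S12 was the highest. Without S12 the median fold of ldCil was −0.12.

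With AngII + ldCil, 41 of the 43 genes were above control and 2, Atp5s and Cox7a2l, below, with a median log2 fold change of 0.24 (all genes, 0.05). Higher at an unadjusted p under 0.05 were Atp5k at a fold of 0.40 (SE 0.15), Cox7c at 0.40 (SE 0.17) and Uqcr11 at 0.37 (SE 0.17), each with an adjusted p of 0.849 in limma. These 3 genes are 6.98% of the 43, where 2.7% of all genes were called higher and 2.92% lower. Cox7c, a small subunit of complex IV, was at 6.74, 6.69 and 6.55 in control, 7.02, 7.15, 7.19 and 6.91 with AngII, 6.47, 6.42, 6.60 and 7.23 with ldCil, and 7.03, 7.07, 7.21 and 6.91 with AngII + ldCil. Without overlap, 11 of the 43 genes were above control, against 7.35% of all genes. S15 was the highest of the AngII + ldCil libraries on average and S16 the lowest. The muscle-type gene Cox8b had the largest fold of the 43, 0.60 (SE 0.36), and Cox7a1 was at 0.50 (SE 0.42), both with overlap. With the interferon response mean as a covariate these folds were −0.0036 and −0.095, and with the cardiomyocyte marker mean that of Cox7a1 was −0.045.

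Adding ldCil to AngII was compared with AngII alone directly. No gene of the 43 passed at an unadjusted p under 0.05, where 1.61% of all genes were called higher and 0.965% lower. There were 12 genes above and 31 below their AngII mean, with a median of −0.08 (all genes, 0.01). Cyc1 had the smallest p of the 43, at a fold of 0.30 (SE 0.15) (limma, unadjusted p = 0.0581). Uqcrc2 (0.18 (SE 0.19)) and Cox8a (0.12 (SE 0.12)) followed on the higher side. On the lower side were Atp5mpl (−0.23 (SE 0.14)), Cox7b (−0.27 (SE 0.18)) and Uqcr10 (−0.25 (SE 0.16)). Cox7b, a small subunit of complex IV, was at 7.0, 7.24 and 6.87 in control, 7.85, 7.59, 7.57 and 7.29 with AngII, 7.09, 7.0, 6.92 and 7.61 with ldCil, and 7.24, 7.37, 7.64 and 6.98 with AngII + ldCil. Both comparisons with AngII share the AngII libraries, so that a high AngII value enters one as a higher and the other as a lower fold.

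The AngII by ldCil interaction asks whether the effect of AngII differed in the presence of ldCil. None of the 43 genes passed at an unadjusted p under 0.05 (1.84% of all genes were called above 0 and 2.02% below), with 13 above 0, 30 below and a median of −0.09 (all genes, 0.02). The largest differences among the 3 smallest p on each side were those of Cox7a1 (−1.05 (SE 0.57), limma, unadjusted p = 0.0841) and Cox6a1 (0.45 (SE 0.31)). Atp5mpl (−0.37 (SE 0.21)), Uqcr10 (−0.39 (SE 0.24)), Cyc1 (0.37 (SE 0.22)) and Cox7a2l (0.29 (SE 0.19)) were the others.

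The mean of the 43 genes per library, with each gene centred on its own mean, was −0.21, −0.04 and −0.25 in control, 0.27, 0.17, 0.23 and 0.03 with AngII, −0.27, −0.29, −0.19 and 0.28 with ldCil, and 0.08, 0.07, 0.25 and −0.12 with AngII + ldCil. The AngII libraries were all above the controls, while the ldCil group held both the lowest library, S10, and the highest, S12. S5 was the highest of 15 for 17 of the 43 genes and the lowest for Atp5a1 and Atp5b. Without S5 the median fold with AngII was 0.27 and 11 genes passed at the unadjusted threshold, without S3 4 genes passed, without S1 10 and without S8 23. How many of all genes passed was not counted in these fits, so the counts have no share to be set against.

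Other gene lists also varied between the libraries. The mean of 20 cardiomyocyte markers, centred the same way, was −0.26, −0.08 and −0.25 in control, −0.08, 0.26, 0.27 and 0.0020 with AngII, −0.24, −0.27, 0.05 and 0.27 with ldCil, and −0.12, −0.11, 0.37 and 0.17 with AngII + ldCil. With AngII 15 of these 20 markers were above control, 2 at an unadjusted p under 0.05, with a median fold of 0.19. The lowest value of any of them was 5.46, for Tcap. With this mean as a covariate the median fold of the 43 genes with AngII was 0.19 and 2 genes passed at the unadjusted threshold. The share of all genes passing in that fit was not counted, so whether 2 exceeds it cannot be said. Genes of the interferon response (20 genes, 19 tested) were at a mean between 0.32 and 2.58 in control, between −1.81 and 2.02 with AngII, between −1.82 and 2.56 with ldCil, and between −1.75 and −0.37 with AngII + ldCil, and all 19 were below control with AngII, 5 of them at an unadjusted p under 0.05, with a median of −2.26. With their mean as a covariate the median of the 43 genes was 0.25 and 11 passed, again without a count over all genes. Of 8 macrophage markers 5 were above control with AngII, with a mean of 1.11 in S5 and −1.44 in S16, and of 10 fibroblast markers 7 were below control, with a mean of −1.18 in S16. Of 7 epicardial markers 6 were tested and 5 were above control with AngII, none of them at an unadjusted p under 0.05, with a median fold of 0.30. Their mean was −0.31, −0.27 and −0.45 in control and 0.12, 0.28, −0.04 and 0.37 with AngII, without overlap, and ran from −0.54 to 0.76 with ldCil and from −0.34 to 0.51 with AngII + ldCil. The levels of the epicardial markers ran from a mean of 6.38 log2 RPKM for Krt18 and 5.19 for Aldh1a1 down to −0.93 for Wt1, a defining epicardial gene. Of 6 smooth muscle markers 4 were above control with AngII, 1 at an unadjusted p under 0.05, with a median fold of 0.38, and their mean ran from −0.34 to 0.26 in control and from −0.15 to 0.46 with AngII. Of 8 endothelial markers 4 were above control (median −0.04), and of 3 neuronal and Schwann cell markers tested 1 was (−0.43). The part of these cell type and state differences in the levels of the 43 genes was not tested, beyond the fits with the cardiomyocyte and interferon means.

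**Figure D4:**
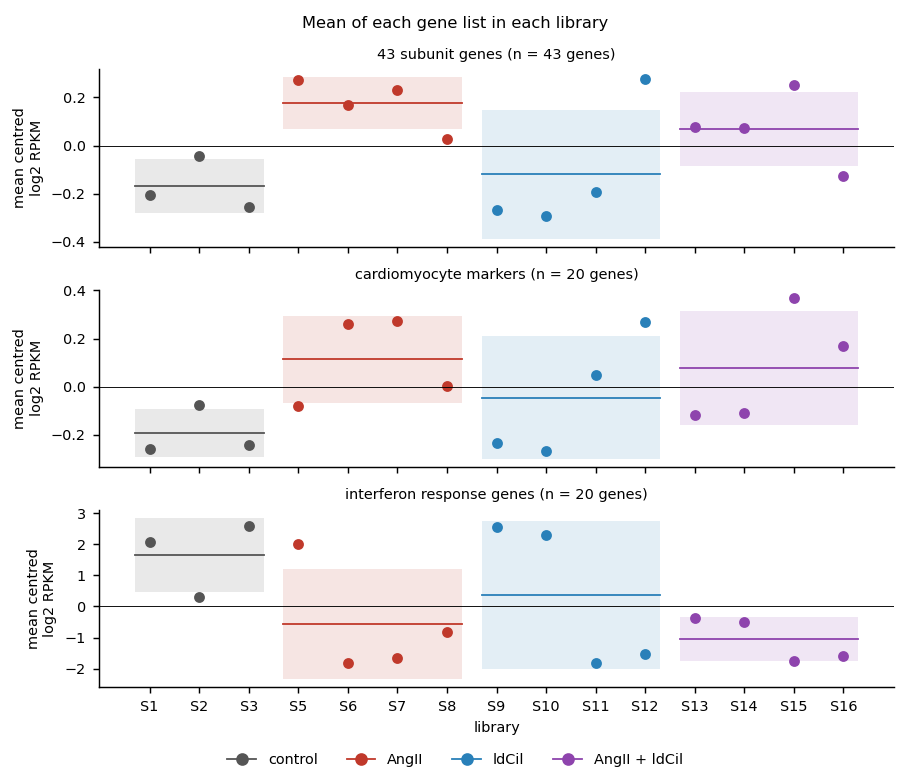
Mean centred log2 RPKM of 3 gene lists in each of the 15 libraries, coloured by treatment group. Points are libraries, lines are group means and shaded bands are 1 SD. The 43 genes are lowest in S10 and highest in S12, the cardiomyocyte markers reach 0.37 in S15, and the interferon response genes are above 2 in S1, S3, S5, S9 and S10.

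When each library was weighted by how closely it followed its group (limma's arrayWeights, from 0.11 for S5 to 7.01 for S1), 34 of the 43 genes were called at an adjusted p under 0.05 with AngII, where 48.6% of all genes were called, 30 with AngII + ldCil against control, where 18% of all genes were called, and none with ldCil, where 0.0233% were called. Among the AngII calls Cox6a1 (−0.37) and Cox7a2l (−0.23) were lower. The F1 genes Atp5c1 and Atp5e and the c-ring genes Atp5g1 and Atp5g3 were called higher. With these weights a single library, S1, set most of the control level.

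The other parts of oxidative phosphorylation were described by the same counts. With AngII 36 of 37 nuclear complex I genes were above control, 7 of them higher and none lower at an unadjusted p under 0.05, with a median of 0.26. All 4 complex II genes were above control and none passed (0.20), and 8 of 10 mitochondrially encoded genes were above control, 1 of them higher at the unadjusted threshold (0.18). Of 35 assembly factors for complexes III, IV and V, 19 were above control, 3 higher and 1 lower at an unadjusted p under 0.05 (0.06), and of 13 regulators of mitochondrial genes 9 were above and none passed (0.13). The 77 mitochondrial ribosomal proteins were near control (0.02, 1 higher), and 75 of 76 cytosolic ribosomal proteins were below control, 1 of them at the unadjusted threshold (−0.25). The same lists for AngII + ldCil against control had medians of 0.19 for complex I, 0.19 for complex II, 0.18 for the mitochondrially encoded genes, 0.06 for the assembly factors, 0.25 for the regulators, 0.04 for the mitochondrial and −0.21 for the cytosolic ribosomal proteins.

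Across the 43 genes the AngII fold was larger for genes of lower level and shorter total exonic length. Spearman's rho was −0.36 with the mean level and −0.43 with the exonic length (n = 43 genes, which share libraries and are not independent). The genes are short, with a median of 1587 exonic bases against 4377 for all genes tested. When the trend of each library with length and GC content was removed, the median fold with AngII was 0.33 and 13 genes passed at the unadjusted threshold. The share of all genes passing in that fit was not counted.

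Promoters are shown for 5 genes whose values were seen first, Atp5k and Uqcr11, which passed at the unadjusted threshold with AngII and with AngII + ldCil, Cox7a1 and Cox8b, the muscle-type genes with large folds, and Cox6a1, a widely expressed form whose fold with AngII was near 0. The 250 bases before the RefSeq start of each gene were taken on GRCm38.p6, where 33 of the 43 genes had an entry. They are written 5′ to 3′ on the strand of the gene. By the GENCODE M21 coordinates, the windows of Atp5k, Cox6a1, Uqcr11 and Cox7a1 run into the gene. Capitals mark CATGCGC, the core of the motif of nuclear respiratory factor 1 (NRF-1), and CCGGAAG, a motif of GABPA (NRF-2), on either strand, and both factors have long been known at genes of the respiratory chain. In Atp5k and Cox6a1 the NRF-1 core lies on both strands and the matches overlap.
Atp5k, chr5:108434400-108434649, minus strand: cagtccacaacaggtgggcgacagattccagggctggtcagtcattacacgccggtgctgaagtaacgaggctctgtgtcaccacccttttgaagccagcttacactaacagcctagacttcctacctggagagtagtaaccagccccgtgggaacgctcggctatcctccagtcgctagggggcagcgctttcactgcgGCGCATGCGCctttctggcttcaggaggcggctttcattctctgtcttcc
Cox6a1, chr5:115348959-115349208, minus strand: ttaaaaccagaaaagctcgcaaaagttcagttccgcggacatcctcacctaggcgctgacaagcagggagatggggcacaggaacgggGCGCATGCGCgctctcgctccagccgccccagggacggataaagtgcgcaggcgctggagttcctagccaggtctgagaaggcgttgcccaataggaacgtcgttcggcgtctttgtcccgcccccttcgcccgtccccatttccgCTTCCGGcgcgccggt
Uqcr11, chr10:80406822-80407071, minus strand: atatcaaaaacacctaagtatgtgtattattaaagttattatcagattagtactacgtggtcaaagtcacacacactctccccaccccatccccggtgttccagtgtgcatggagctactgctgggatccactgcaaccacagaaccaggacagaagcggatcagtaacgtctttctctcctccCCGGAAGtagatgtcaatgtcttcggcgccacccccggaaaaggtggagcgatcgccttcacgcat
Cox7a1, chr7:30183921-30184170, plus strand: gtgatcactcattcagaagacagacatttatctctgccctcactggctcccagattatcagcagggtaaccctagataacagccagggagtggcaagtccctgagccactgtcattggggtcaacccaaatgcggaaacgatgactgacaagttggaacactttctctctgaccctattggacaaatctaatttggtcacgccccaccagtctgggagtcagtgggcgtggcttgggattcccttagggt
Cox8b, chr7:140900447-140900696, minus strand: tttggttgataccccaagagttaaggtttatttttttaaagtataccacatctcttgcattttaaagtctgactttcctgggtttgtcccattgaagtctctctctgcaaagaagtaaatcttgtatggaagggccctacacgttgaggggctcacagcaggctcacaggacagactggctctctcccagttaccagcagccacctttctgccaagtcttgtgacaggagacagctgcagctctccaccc

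Neither motif occurred in the windows of Cox7a1 and Cox8b or of their widely expressed partners, Cox7a2 and Cox8a. Cox6a1 held both. The third muscle-type gene, Cox6a2, had no entry. Over both strands the NRF-1 core was found at 6 of the 33 genes (Atp5g2, Atp5k, Atp5l, Cox5b, Cox6a1 and Cycs, 18.2%) and at 3.68% of the 27025 mouse genes with an entry. The GABPA motif was found at 8 (24.2% against 7.83%), Atp5e, Atp5h, Atp5j, Atp5l, Cox6a1, Cox6b1, Uqcr11 and Uqcrh. AAGGTCA, a motif of oestrogen-related receptors, was found at Atp5g3 and Atp5l (6.06% against 4.70%), the E-box CAGCTG at Atp5b and Cox8b (6.06% against 14.7%), TATAAA at Atp5l (3.03% against 14.3%) and CTATTTT, a stretch of the MEF2 motif, at Uqcr10 (3.03% against 4.47%). The 27025 genes go beyond the 14337 measured here and were not matched to the 33 for level or GC content. No share over the genes tested was taken. A match is a run of letters and not a measured site. These libraries hold no binding data, so factor binding was not tested.

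Reads that fall in near-identical processed pseudogenes can be lost or assigned to either copy, and how the counting treated them is not stated. The table listed 2 pseudogenes with symbols of these families, which were not used, and the levels of the genes with such copies are uncertain to that extent.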

How the data were processed

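The deposited table holds log2 RPKM values per gene and library, which the authors made from poly(A) RNA-Seq by conditional quantile normalisation. The submitters' processing notes name HISAT2, HTSeq and GRCm38 (mm10), while tool versions, strandedness and the annotation release are not stated. Gene identifiers were matched to GENCODE M21, which found 14329 of 14337.

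The 12848 genes whose log2 RPKM averaged 0 or more were tested with limma 3.58.1 in R 4.3.3. The model had 1 mean per group, no covariate and a trended prior, and 2-sided p-values were adjusted over these genes (Benjamini-Hochberg). Isoform differences were compared by exact permutation tests with scipy 1.17.1. The limma step was tested on simulated data. Neither depth nor counting precision can be given from log2 RPKM.

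The genes, gene lists, motifs and named genes were chosen with earlier results of these data known. Named with every library's value were core subunits, isoform pairs and, in each comparison, the 3 with the lowest p above and below 0. Others were named after their values were seen. Alternatives are given in the closing section. Removing the trend with length and GC content was added after seeing the data. The NRF-1 and MEF2 motifs are shortened forms of 7 letters, taken up after a first promoter search with longer forms had been seen. The longer NRF-1 form had matched fewer of the genes, Atp5g2, Atp5k and Cox6a1, and the longer MEF2 form none of them, and counts for the longer forms are not reported here.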

Additional observations from a re-analysis of the deposited data

Results flagged for a closer look

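The named genes, the mean of the 43 genes and the 4 isoform shares were looked at in the AngII, ldCil and AngII + ldCil groups, 111 groups of 4 libraries in all, for a library whose gap to the nearest of the others exceeded Dixon's 95% critical share of the whole range for 4 samples. Such a library was found in 13 groups, where chance gives about 1 in 20, or 5.55, for independent groups. The groups looked at share the same libraries and are not independent, so 13 cannot be judged against 5.55.

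S12 stood above the other ldCil libraries in 6 of the 13 groups. It was at 7.92 log2 RPKM for Atp5g1 (others 7.24 to 7.35), 9.84 for Atp5g3 (9.40 to 9.44), 8.12 for Cox5a (7.50 to 7.59), 7.20 for Cox6a2 (6.62 to 6.69), 7.85 for Uqcr10 (7.10 to 7.16) and 8.26 for Uqcrfs1 (7.49 to 7.62). These genes encode subunits of complex III, complex IV and the c ring, and the interferon response genes and cardiomyocyte markers were at means of −1.53 and 0.27 in that library. In S11, which was among the others for each of these genes, the same means were −1.82 and 0.05.

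S16 stood apart from the other AngII + ldCil libraries in 4. It was below them for Atp5g1, at 7.30 (others 7.81 to 7.89), Uqcrc1, at 8.39 (8.74 to 8.79), and Uqcrc2, at 7.80 (8.35 to 8.39), and above them for Atp5b, at 10.68, where the other 3 shared the value 10.63.

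The remaining libraries each stood apart once. S5 was at 7.94 for Cox7a2 among the AngII libraries (others 7.28 to 7.37), S13 at 7.30 for Cox7a2 among the AngII + ldCil libraries (7.41 to 7.43), and S11 at 6.12 for Cox7a2l among the ldCil libraries (6.44 to 6.49). No interaction passed at an adjusted p under 0.05. The cause of these departures was not tested.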

How the results depend on the processing

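The labels number the libraries across the groups, from S1 to S16 without an S4, and give no number that pairs them. No paired analysis was therefore possible, and the labels do not say why S4 is missing. Replicate numbers within a group are only names. The values hold no depth. Without a filter, with a mean of at least 2, with 0.1 or 1 added to RPKM, with median centring, quantile normalisation, no trend or a robust trend, the medians stayed within the spread of the mean of the 43 genes between libraries (SD 0.17) and the counts within 1.5 times.

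For AngII against control, library weights (arrayWeights) gave 34 genes called at an adjusted p under 0.05, 34 higher and 2 lower at the unadjusted threshold and 6245 calls over all genes. The 2 lower, Cox6a1 and Cox7a2l, were among the adjusted calls. The 18 genes higher at the unadjusted threshold became 2 with the cardiomyocyte marker mean as a covariate (median fold 0.19) and 11 with the interferon response mean, and leaving out 1 library gave 4 to 23. For ldCil the weights gave 2 lower and 3 calls over all genes, and leaving out 1 library 0 to 1 higher. For AngII + ldCil against control the 3 genes higher became 8 in a fit of only the groups compared, 33 with weights (30 adjusted, 2311 calls over all genes), and 0 with either covariate or with the length and GC trend removed, and 0 to 7 with 1 library left out. For AngII + ldCil against AngII the weights gave 9 adjusted calls, 4 higher and 11 lower, and 4048 over all genes, the cardiomyocyte covariate 1 higher, and leaving out 1 library 0 to 1 on each side. For the interaction the weights gave 5 adjusted calls, 4 higher and 6 lower, and 2387 over all genes, and leaving out 1 library gave 0 to 2 higher and 0 to 3 lower. Calls over all genes are given at an adjusted p under 0.05, and those at the unadjusted threshold were not counted in these fits. The cause of these changes was not tested.

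Among single genes, signs reversed mostly for folds within 0.2 of 0, but also for Cox4i2 with AngII (1.44) and for Cox8b (0.60) and Cox7a1 (0.50) with AngII + ldCil, none of which had passed an adjusted threshold. With weights the AngII fold was 0.16 for Cyc1, 0.059 for Atp5a1, −0.011 for Atp5g2 and 0.10 for Uqcrc2, and for AngII + ldCil 0.019 for Atp5s and 0.11 for Cox7a2l. With the cardiomyocyte covariate it was 0.058 for Cox7a2l, −0.019 for Atp5c1, −0.13 for Cox4i2, 0.19 for Cox6a1 and −0.14 for Cox6a2 with AngII, and 0.12 for Cox7a2l and −0.045 for Cox7a1 with AngII + ldCil. With the interferon covariate it was 0.057 for Cox7a2l, −0.12 for Cox4i2, 0.16 for Cox6a1 and −0.038 for Cox6a2 with AngII, and 0.16 for Cox7a2l, −0.095 for Cox7a1 and −0.0036 for Cox8b with AngII + ldCil. With the length and GC trend removed it was −0.087 for Atp5g2 and −0.017 for Cox8a. With 1 library left out, the folds ranged with AngII from −0.13 to 0.10 for Uqcrc2, −0.15 to 0.036 for Cyc1, −0.10 to 0.025 for Atp5a1, −0.028 to 0.094 for Atp5g2 and −0.20 to 0.022 for Atp5s, with ldCil from −0.26 to 0.0080 for Atp5f1, and with AngII + ldCil from −0.15 to 0.00022 for Atp5s and −0.057 to 0.045 for Cox7a2l. The isoform differences for AngII + ldCil against control ranged from −0.18 to 0.84 (Cox4i2 minus Cox4i1), −0.34 to 0.45 (Cox6a2 minus Cox6a1), −0.020 to 0.50 (Cox7a1 minus Cox7a2) and −0.044 to 0.58 (Cox8b minus Cox8a), that of Cox6a2 minus Cox6a1 for AngII + ldCil against AngII from −0.60 to 0.19, and that of Cox4i2 minus Cox4i1 for ldCil from −0.37 to 1.62. The median of the 43 genes ranged from −0.12 (without S12) to 0.08 for ldCil and from −0.15 to 0.05 (without S12) for the interaction.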
